A study of Rattus norvegicus with 18 samples.

Results

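The aminoacyl-tRNA synthetase genes are described here across cultured rat astrocytes that received interferons, a mixture of inflammatory factors, or both. They were taken by symbol from the authors' deposited expression table: symbols of 1 capital letter and "ars", with or without a final 1 or 2, together with Eprs, Farsa, Farsb, Tarsl2, Aimp1, Aimp2 and Eef1e1. This gave 39 of the 10431 genes with a name, and all 39 passed the filter on low values (1 FPKM or more in at least 3 libraries), as 10296 genes did. Of them 19 encode cytosolic enzymes or enzyme subunits, 2 (Gars and Kars) encode enzymes of both cytosol and mitochondria, 15 encode mitochondrial enzymes, and 3 (Aimp1, Aimp2 and Eef1e1) encode scaffold proteins. Gars and Kars are counted with the cytosolic enzymes below, which makes 21. Iars2 and Mars2 were not analysed here.

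RNA was sequenced from astrocytes isolated by immunopanning, a capture on antibody-coated dishes, from brains of rats at postnatal day 5. Per the labels, cells were treated for 24 hours with PBS (control), 3 ng/ml IFNγ, 1000 U/ml IFNβ, TIC (TNFα at 30 ng/ml together with IL1α at 3 ng/ml and C1q at 40 ng/ml), IFNγ plus TIC, or IFNβ plus TIC. The legend deposited with the table gives 1000 U/ml for IFNγ, 3 ng/ml for IFNβ and 400 ng/ml for C1q instead, so the doses are uncertain and the interferons cannot be taken as matched in strength. Each of the 6 groups had 3 libraries, and no label says whether these came from separate animals or cultures, so p-values measure only the spread between libraries. Values are FPKM, fragments scaled to transcript length and library total, and a library summed to between 505828 and 542957 FPKM; the number of reads behind them is unknown.

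Each aminoacyl-tRNA synthetase joins an amino acid to the tRNAs that carry its codons, and so supplies the substrates of protein synthesis. Cytosol and mitochondria mostly use enzymes from separate nuclear genes, the mitochondrial ones marked by a final 2 in the symbol. In the cytosol, Eprs, Iars, Lars, Mars, Qars, Rars, Kars and Dars are held with Aimp1, Aimp2 and Eef1e1 in the multisynthetase complex, while the other enzymes act outside it. Many cytosolic synthetase genes are known targets of ATF4, the transcription factor of the integrated stress response, and WARS is a well-known IFNγ-induced gene in human cells.

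The promoters of these genes are shown first because the letters of 1 short element were more frequent in cytosolic enzyme promoters than in all promoters. RefSeq promoters on GRCr8, 250 bases before to 50 after the transcription start, were found for 35 of the 39 genes. Dars, Gars and Rars were among those not matched. For each gene only the first listed promoter was searched, whereas the shares of all promoters cover 33469 promoters of 27457 genes. The core letters of the C/EBP-ATF response element bound by ATF4, TGATGNAA on either strand, occurred in 7 of 18 cytosolic enzyme promoters (38.9%) and in 0 of 14 mitochondrial ones, against 3.98% of all 33469 promoters. At that share, 0 of 14 does not set the mitochondrial promoters apart from all promoters. The Hars and Hars2 windows overlap and were counted once in each class. Of the 8 matches, 7 read TGATGCAA on their strand. Along the strand of each gene, with the match in capitals and 20 bases on either side (fewer where the 300 bases end), 7 of them read as follows.
Nars1: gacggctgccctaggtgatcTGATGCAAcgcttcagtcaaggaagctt
Mars1: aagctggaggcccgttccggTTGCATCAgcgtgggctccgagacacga
Iars1: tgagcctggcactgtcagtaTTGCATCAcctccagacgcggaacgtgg
Tars1: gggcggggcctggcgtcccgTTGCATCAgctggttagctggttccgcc
Cars1: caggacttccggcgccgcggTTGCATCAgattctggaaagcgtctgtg
Aars1: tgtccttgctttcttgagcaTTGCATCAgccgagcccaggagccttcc
Yars1: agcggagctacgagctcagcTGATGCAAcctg
With the first transcribed base counted as 1, the first capital stands at -14 in Nars1, -17 in Mars1, -24 in Iars1, -27 in Tars1, 18 in Cars1, -112 in Aars1 and 39 in Yars1. The stretches lie at chr18:60275769-60275816 (minus strand), chr7:65023743-65023790 (minus), chr17:15193649-15193696 (minus), chr2:62114802-62114849 (minus), chr1:208225325-208225372 (minus), chr19:55908350-55908397 (plus) and chr5:146820181-146820212 (plus). Aars1 held a second match that starts at position 10. Letters of the GAS element of STAT factors, TTCNNNGAA, were in the promoters of Aars, Lars, Qars, Nars2, Wars2 and Eef1e1 (6 of 35, 17.1%, against 8.87% of all promoters). The interferon-stimulated response element core, GAAANNGAA, was in 0 of 35 against 9.71% of all, and the Kars and Wars windows held none of the 3 motifs. Any other start sites of these genes, and sequence outside the windows, were not searched. No matches of different motifs overlapped, and a match is a description of letters, not of binding.

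Among levels, which FPKM makes comparable between genes, cytosolic enzymes stood well above mitochondrial ones. In control libraries the mean of Nars, asparaginyl-tRNA synthetase, was highest at 172 ± 20.95 FPKM (SD, n = 3), and the mean of Ears2, mitochondrial glutamyl-tRNA synthetase, was lowest at 2.55 ± 0.763 FPKM (SD, n = 3). The 19 purely cytosolic members had a median control mean of 59.0 FPKM and ran down to 5.58 FPKM for Tarsl2, a threonyl-tRNA synthetase paralogue. The 15 mitochondrial enzymes had a median of 9.88 FPKM and ran up to 29.0 FPKM for Tars2. The summed level of the 21 cytosolic enzymes was 1342 ± 87.6 FPKM (SD, n = 3) in controls, with 1308 ± 23.6 after IFNγ and 1293 ± 46.4 after IFNβ. It was 1762 ± 65.2 FPKM after TIC, 2011 ± 22.2 after IFNγ plus TIC and 1530 ± 33.4 after IFNβ plus TIC. The 15 mitochondrial enzymes summed to 201 ± 8.97 FPKM (SD, n = 3) in controls, to 212 ± 15.2 after IFNγ and to 186 ± 10.5 after IFNβ. They summed to 177 ± 7.89 FPKM after TIC, 158 ± 6.83 after IFNγ plus TIC and 154 ± 3.58 after IFNβ plus TIC. Every TIC, IFNγ plus TIC and IFNβ plus TIC library lay above every control library in the cytosolic sum and below every control library in the mitochondrial sum. Nars had the highest and Ears2 the lowest group mean in each of the 6 groups.

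**Figure D1:**
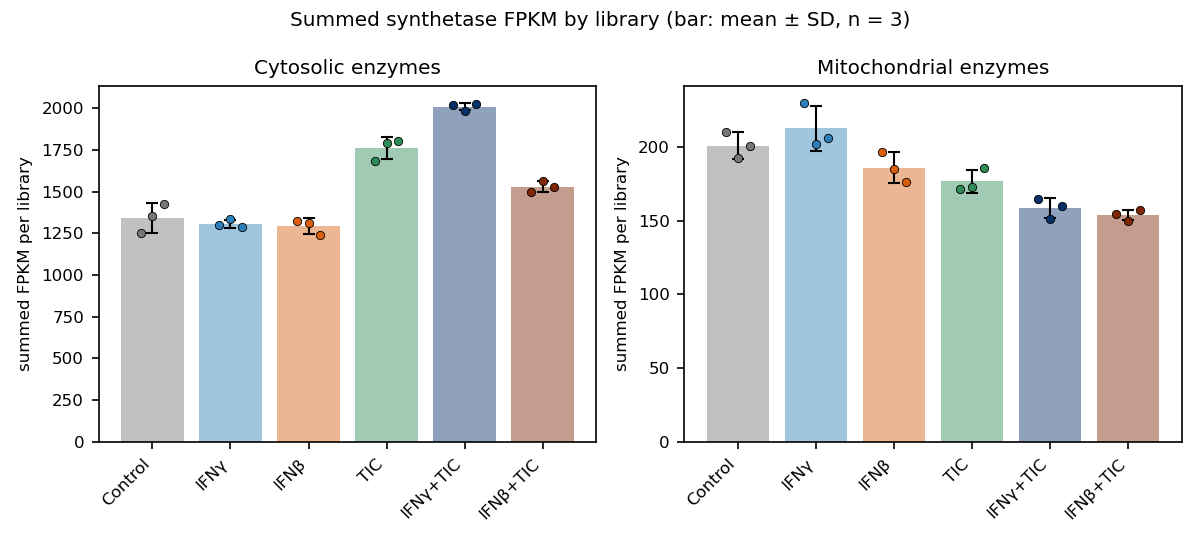
Summed FPKM per library of the 21 cytosolic and the 15 mitochondrial synthetase genes in the 6 groups; points are libraries, bars the mean and error bars the SD (n = 3). The cytosolic sum was highest with IFNγ plus TIC (mean 2011 FPKM) and the mitochondrial sum lowest with IFNβ plus TIC (mean 154 FPKM).

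**Figure D2:**
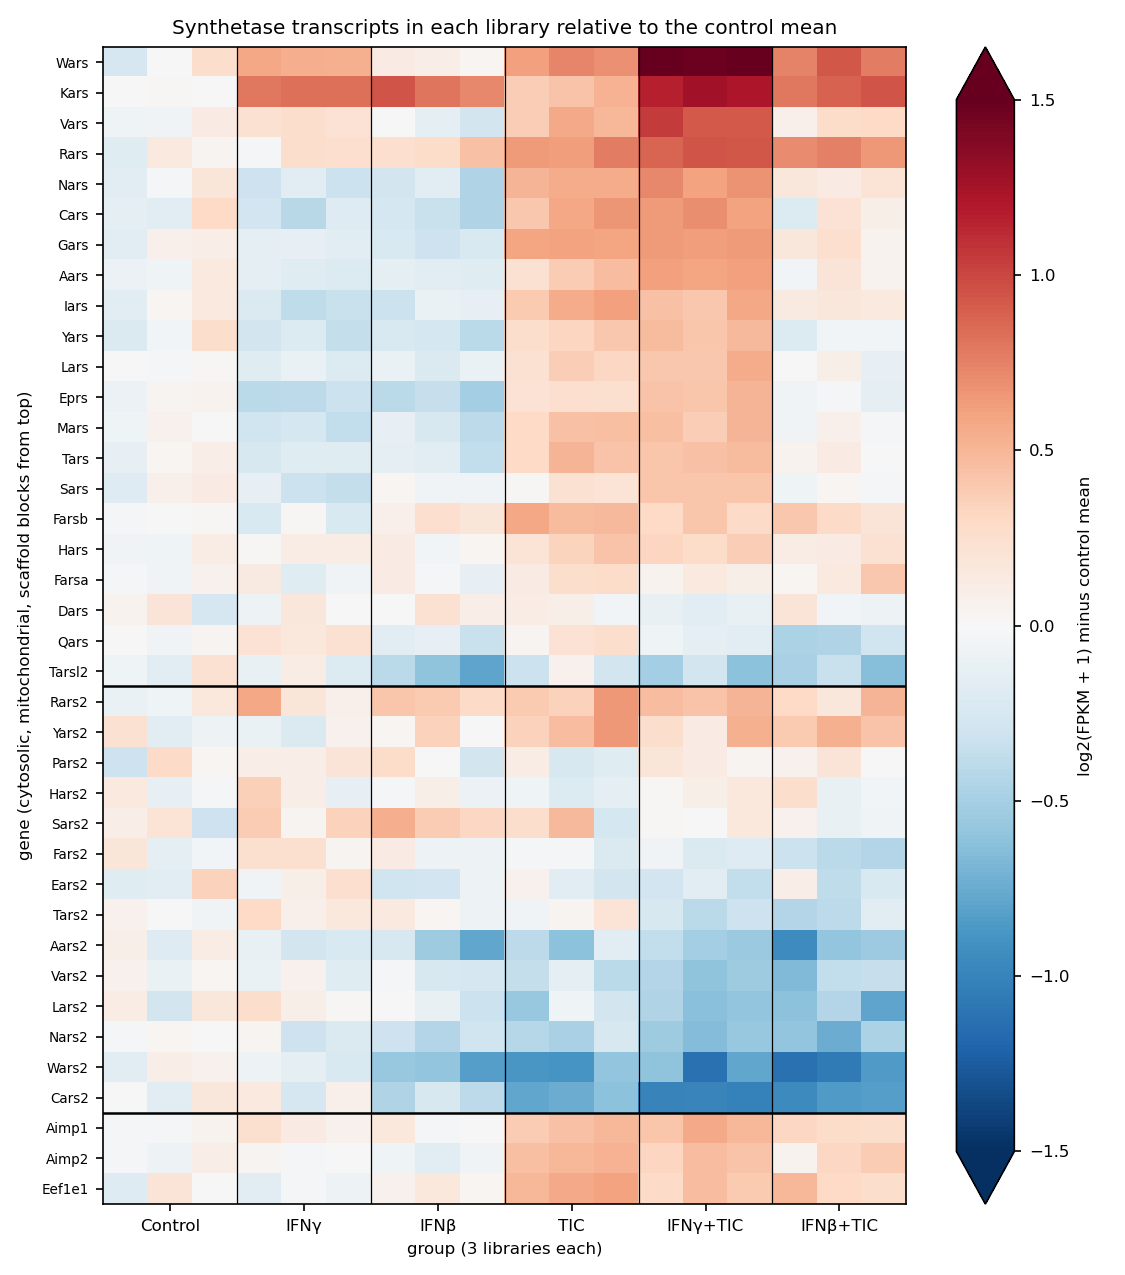
Of the 39 genes, 38 (rows: cytosolic, mitochondrial and scaffold blocks) in each of the 18 libraries (columns), as log2(FPKM + 1) minus the control mean, on a colour scale that is cut at both ends. Most cytosolic rows are above the control mean in the TIC libraries, and rows such as Cars2 and Wars2 are below it.

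TIC alone raised most cytosolic synthetases and the scaffold genes. Against control, 16 of 21 cytosolic enzymes rose and 0 fell (18 and 0 at an unadjusted p under 0.05), 2 of 15 mitochondrial enzymes rose and 6 fell, and all 3 scaffold genes rose. Together 21 members rose and 6 fell, where 56.5% of all genes tested were called (25.3% higher, 31.2% lower) by limma on log2(FPKM + 1), at an adjusted p under 0.05. The median log2 change was 0.39 for cytosolic and -0.14 for mitochondrial enzymes, beside -0.043 for all genes tested. The 5 cytosolic enzymes that did not pass were Dars, Farsa, Qars, Sars and Tarsl2. After median-ratio scaling, which divides FPKM by a factor per library, Farsa, Qars and Sars passed too (0.28, 0.23 and 0.21, adjusted p = 0.0121, 0.0103 and 0.0291), so that 19 of 21 cytosolic enzymes rose. The mitochondrial enzymes that fell, 6 of 15 beside 31.2% of all genes, were 4 of 15 beside 27.9% after the scaling, so the falls with TIC were not set apart from those of all genes.

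IFNγ plus TIC gave the widest separation of the classes. Here 17 cytosolic enzymes rose and 1, Tarsl2, fell; 1 mitochondrial enzyme, Rars2, rose and 8 fell (2 and 6 after median-ratio scaling); and the 3 scaffold genes rose. The 30 members called (21 higher, 9 lower) compare with 63.2% of all genes (22.9% higher, 40.4% lower), and the median log2 change was 0.46 in cytosolic and -0.32 in mitochondrial enzymes against -0.15 for all genes. IFNβ plus TIC gave 10 members higher and 11 lower (62.1% of all genes called, 19.3% higher and 42.8% lower). Of the cytosolic enzymes, 5 rose (Kars, Wars, Rars, Farsb and Vars) and 2 fell (Qars, and Tarsl2, whose call was lost without control replicate 3 at -0.37, adjusted p = 0.055), with a median of 0.067; 2 mitochondrial enzymes rose and 9 fell, with a median of -0.39, beside -0.20 for all genes.

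Either interferon alone changed fewer members. IFNγ raised Kars and Wars and lowered Eprs, Mars, Iars, Nars and Sars, 7 members where 14.3% of all genes were called (7.11% higher, 7.17% lower). With IFNβ, Kars, Rars and Rars2 rose, and 9 cytosolic and 4 mitochondrial enzymes fell, which makes 16 members where 38.0% of all genes were called (8.86% higher, 29.1% lower). The falls with IFNβ, 13 of 39 members beside 29.1% of all genes, were not set apart from those of all genes. Of the mitochondrial enzymes 0 were called with IFNγ by limma, with 1 higher at an unadjusted p under 0.05, and the scaffold genes passed with neither interferon alone, except that Aimp1 rose with IFNβ after median-ratio scaling (0.19, adjusted p = 0.0307). Many of these calls rested on single libraries. The IFNγ calls of Iars, Nars and Sars were each lost without any of 4 libraries, control replicates 2 and 3 and IFNγ replicate 3 among them (adjusted p = 0.0648 to 0.155), and did not pass after median-ratio scaling. Rars2 with IFNβ lost its call without control replicate 1 or 2 or IFNβ replicate 1 or 2 (adjusted p = 0.0724 to 0.0978). The falls of Cars, Mars, Nars, Qars, Tars and Yars with IFNβ were each lost without single libraries (limma adjusted p = 0.0502 to 0.184). After median-ratio scaling 2 cytosolic enzymes were lower with IFNβ. The authors' deposited table calls none of the 9 cytosolic falls (adjusted p = 0.0528 to 0.814).

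The split by direction depended on how libraries were scaled. Dividing FPKM by each library's median-ratio factor moved the median log2 change of all genes from -0.16 to -0.028 with IFNβ, from -0.15 to 0.0094 with IFNγ plus TIC, and from -0.20 to 0.0050 with IFNβ plus TIC. It also moved it from -0.12 to -0.015 for IFNγ added to TIC, from -0.15 to -0.0013 for IFNβ added to TIC and from -0.12 to -0.022 for IFNβ against IFNγ. After this scaling the members called higher and lower were 4 and 2 with IFNγ (13.7% of 10284 genes called, 8.32% higher and 5.41% lower), 6 and 3 with IFNβ (30.3%, 14.3% and 15.9%), and 21 and 7 with IFNβ plus TIC (59.6%, 30.3% and 29.3%), so that most member calls were then higher. In the last comparison 16 cytosolic enzymes rose and 1 fell, while 2 mitochondrial enzymes rose and 6 fell. The counts were 24 and 4 with TIC (57.1%, 29.2% and 27.9%) and 23 and 6 with IFNγ plus TIC (62.7%, 31.6% and 31.0%), so the lead of higher calls there did not depend on the scaling.

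**Figure D3:**
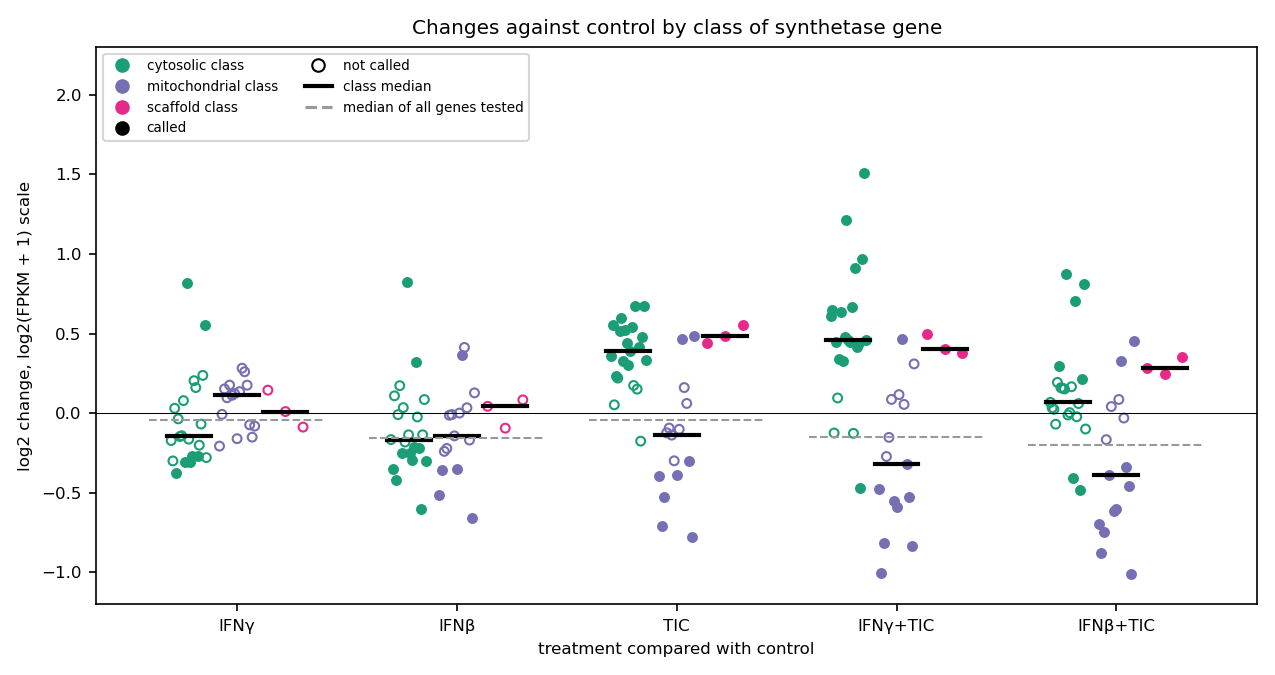
Log2 change of each gene against control (y axis, log2(FPKM + 1) scale) for the 5 treatments, by class; filled points are called at a limma adjusted p under 0.05, black bars are class medians and dashed lines the median of all genes tested. With TIC the cytosolic median is 0.39 and the mitochondrial median -0.14.

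Tryptophanyl-tRNA synthetase, the cytosolic enzyme encoded by Wars, had the largest rise of any member. Wars read 48.6, 58.1 and 70.2 FPKM in the control libraries, 87.6, 85.7 and 84.6 with IFNγ and 63.5, 62.7 and 59.7 with IFNβ. The Wars values were 90.1, 97.3 and 94.1 FPKM with TIC, 172, 164 and 167 with IFNγ plus TIC, and 98.3, 112 and 99.8 with IFNβ plus TIC. Every IFNγ library was above every control library, the IFNβ libraries lay inside the control range, and the IFNγ plus TIC libraries were the highest of all. The mean with IFNγ plus TIC was 2.84 times the control mean (log2 change 1.51 ± 0.093 (SE), limma adjusted p = 2.03e-10). The change was 0.55 ± 0.093 (SE) with IFNγ (adjusted p = 0.000465), 0.68 ± 0.093 (SE) with TIC (adjusted p = 8.28e-06) and 0.81 ± 0.093 (SE) with IFNβ plus TIC (adjusted p = 8.03e-07). With IFNβ alone it was 0.085 ± 0.093 (SE) and did not pass (adjusted p = 0.5). Its response to TIC was not shown to differ by IFNγ, since the interaction of 0.28 ± 0.13 (SE) did not pass (adjusted p = 0.182).

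Wars2, the mitochondrial tryptophanyl-tRNA synthetase, went the other way at a far lower level. Wars2 stood at 7.32, 9.08 and 8.84 FPKM in the control libraries, 7.89, 7.49 and 6.99 with IFNγ and 5.32, 5.23 and 4.29 with IFNβ. TIC gave 4.14, 4.08 and 5.23 FPKM of Wars2, IFNγ plus TIC 5.15, 3.31 and 4.49, and IFNβ plus TIC 3.31, 3.48 and 4.21. The libraries of IFNβ and of all 3 TIC groups were below every control and every IFNγ library. Wars2 changed by -0.66 ± 0.14 (SE) with IFNβ, -0.78 ± 0.14 (SE) with TIC, -0.83 ± 0.14 (SE) with IFNγ plus TIC and -1.01 ± 0.14 (SE) with IFNβ plus TIC, with limma adjusted p-values of 0.00116, 0.000109, 4.25e-05 and 5.59e-06. With IFNγ it was -0.15 ± 0.14 (SE) and did not pass (adjusted p = 0.529). The ratio of Wars to Wars2 FPKM was 6.995 ± 0.824 (SD, n = 3) in control, 11.6 ± 0.511 after IFNγ and 12.6 ± 1.13 after IFNβ. It was 21.2 ± 2.97 with TIC, 40.02 ± 8.46 with IFNγ plus TIC and 28.5 ± 4.34 with IFNβ plus TIC.

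Kars, the lysyl-tRNA synthetase of cytosol and mitochondria and a member of the multisynthetase complex, rose in all 5 treatments. Kars had 69.7, 70.6 and 69.5 FPKM in the control libraries, 122, 125 and 125 with IFNγ and 135, 123 and 116 with IFNβ. With TIC, Kars measured 90.8, 94.00 and 101 FPKM, with IFNγ plus TIC 159, 169 and 163, and with IFNβ plus TIC 122, 129.9 and 135. Every treated library was above every control library, and the IFNβ plus TIC libraries overlapped those of either interferon alone. The log2 change was 0.82 ± 0.063 (SE) with IFNγ and 0.82 ± 0.063 (SE) with IFNβ, with limma adjusted p-values of 2.52e-08 and 1.53e-08. It was 0.44 ± 0.063 (SE) with TIC, 1.21 ± 0.063 (SE) with IFNγ plus TIC and 0.87 ± 0.063 (SE) with IFNβ plus TIC (adjusted p = 1.21e-05, 1.73e-11 and 1.89e-09). Kars was the only member called higher with both interferons alone, and it stayed so after median-ratio scaling (0.86 and 0.97).

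**Figure D4:**
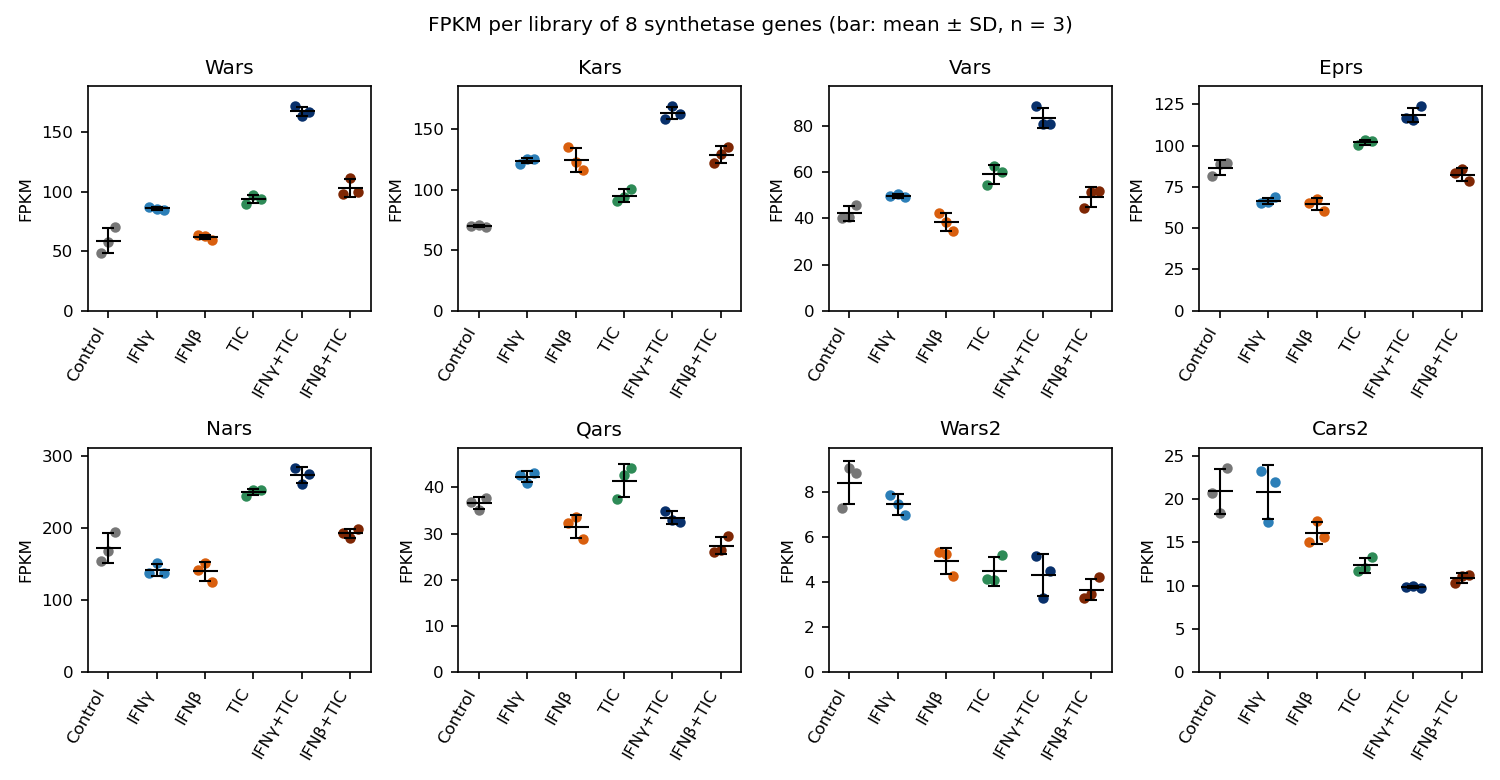
FPKM (y axis, from 0) of Wars, Kars, Vars, Eprs, Nars, Qars, Wars2 and Cars2 in each library of the 6 groups; points are libraries and bars the mean with SD (n = 3). Wars and Kars are highest with IFNγ plus TIC, near 160 FPKM and above, and Wars2 is highest in control at 7.32 to 9.08 FPKM.

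Eprs, glutamyl-prolyl-tRNA synthetase of the same complex, had a direction with IFNγ that depended on TIC. Eprs gave 81.3, 89.1 and 89.5 FPKM in the control libraries, 65.00, 65.8 and 68.8 with IFNγ and 65.2, 67.9 and 60.6 with IFNβ. The Eprs values were 100.4, 103 and 103 FPKM with TIC, 117, 116 and 124 with IFNγ plus TIC, and 83.6, 85.6 and 78.3 with IFNβ plus TIC. The libraries of either interferon alone were below every control, those of TIC and of IFNγ plus TIC above every control, and those of IFNβ plus TIC overlapped the controls. The IFNβ plus TIC libraries were also below every TIC library (means 82.5 and 102 FPKM), and the interaction for IFNβ did not pass. The log2 change was -0.38 ± 0.060 (SE) with IFNγ, -0.42 ± 0.060 (SE) with IFNβ, 0.24 ± 0.060 (SE) with TIC and 0.45 ± 0.060 (SE) with IFNγ plus TIC (limma adjusted p = 0.000287, 4.33e-05, 0.00309 and 4.75e-06). In human myeloid cells EPRS is known to leave the complex after IFNγ and to form the GAIT complex, which silences translation, with RPL13A, GAPDH and SYNCRIP. Of these partners Gapdh stood at 0.12 with IFNγ and 0.020 with IFNβ and Rpl13a at 0.15 and 0.14, on the log2 scale, and none of the 3 passed with either interferon alone, except Rpl13a with IFNβ after median-ratio scaling (0.29, adjusted p = 0.0102). Gapdh fell with TIC (-0.18 ± 0.070 (SE)) and with IFNγ plus TIC (-0.25 ± 0.070 (SE)), and Gapdh and Rpl13a fell with IFNβ plus TIC (-0.44 and -0.20). After that scaling Rpl13a was higher with TIC (0.20, adjusted p = 0.0393), 0 of the 3 were lower with TIC or with IFNγ plus TIC, and Gapdh alone was lower with IFNβ plus TIC (-0.21, adjusted p = 0.00802).

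The other enzymes of the multisynthetase complex differed in their patterns. Rars, arginyl-tRNA synthetase, rose with IFNβ and in every TIC group. Rars measured 40.9, 51.6 and 47.8 FPKM in the control libraries, 45.5, 56.1 and 55.4 with IFNγ and 55.4, 56.5 and 63.6 with IFNβ. TIC gave 73.2, 72.2 and 79.6 FPKM of Rars, IFNγ plus TIC 86.3, 90.04 and 89.4, and IFNβ plus TIC 76.8, 79.6 and 73.5. Every library of those 4 groups was above every control, and IFNγ alone overlapped the controls. The log2 change was 0.32 ± 0.090 (SE) with IFNβ, 0.68 ± 0.090 (SE) with TIC, 0.91 ± 0.090 (SE) with IFNγ plus TIC and 0.71 ± 0.090 (SE) with IFNβ plus TIC (limma adjusted p = 0.0096, 5.59e-06, 1e-07 and 2.76e-06). The call with IFNβ was lost without control replicate 1 (0.23, adjusted p = 0.0585) and without IFNβ replicate 3 (0.26, adjusted p = 0.0535).

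Iars, Lars and Mars, the isoleucyl-, leucyl- and methionyl-tRNA synthetases, were above control with TIC and with IFNγ plus TIC but not with IFNβ plus TIC. Iars read 15.2, 17.7 and 19.3 FPKM in the control libraries, 14.8, 13.1 and 13.6 with IFNγ and 13.7, 16.1 and 15.8 with IFNβ. With TIC, Iars had 23.2, 25.96 and 27.1 FPKM, with IFNγ plus TIC 23.9, 23.3 and 26.5, and with IFNβ plus TIC 19.05, 19.7 and 19.4. IFNγ libraries were below the controls, TIC and IFNγ plus TIC above them, and IFNβ plus TIC reached into the control range. Lars stood at 41.7, 40.98 and 41.9 FPKM in the control libraries, 36.5, 38.6 and 35.8 with IFNγ and 38.7, 35.7 and 38.8 with IFNβ. The Lars values were 48.9, 53.8 and 51.8 FPKM with TIC, 55.4, 55.4 and 61.6 with IFNγ plus TIC, and 41.2, 44.4 and 38.2 with IFNβ plus TIC. Both interferons alone were below all controls, TIC and IFNγ plus TIC above, and IFNβ plus TIC spanned the control values. Mars had 71.98, 79.1 and 75.8 FPKM in the control libraries, 61.2, 62.9 and 58.5 with IFNγ and 69.5, 63.9 and 57.6 with IFNβ. TIC gave 93.03, 102 and 104 FPKM of Mars, IFNγ plus TIC 104, 97.95 and 108, and IFNβ plus TIC 73.1, 79.7 and 74.6. The same order held for Mars, and its TIC and IFNγ plus TIC libraries overlapped. With TIC the log2 changes were 0.52 ± 0.093 (SE) in Iars, 0.30 ± 0.069 (SE) in Lars and 0.39 ± 0.072 (SE) in Mars (limma adjusted p = 0.000132, 0.00119 and 0.000179). With IFNγ plus TIC they were 0.48, 0.46 and 0.44, and with IFNβ plus TIC 0.15, -0.012 and 0.0029, which did not pass in any of the 3. After median-ratio scaling all 3 rose with IFNβ plus TIC as well (0.37, 0.21 and 0.23, adjusted p = 0.00192, 0.0123 and 0.00792). Mars fell with IFNγ (-0.31 ± 0.072 (SE), adjusted p = 0.00741). The Mars gene overlaps Ddit3 in the RefSeq annotation, and how counting treated strand is not stated, so reads of the pair may not be told apart. Ddit3, which encodes the stress factor CHOP, stood at 13.1, 21.4 and 22.5 FPKM in controls, 14.2, 16.4 and 16.9 with IFNγ, 100.1, 88.6 and 112 with IFNβ, 19.7, 22.1 and 24.9 with TIC, 61.5, 76.4 and 80.4 with IFNγ plus TIC and 147, 158 and 164 with IFNβ plus TIC. Both genes were higher with IFNγ plus TIC than in controls, while with IFNβ Ddit3 was higher and Mars lower (-0.25 ± 0.072 (SE), adjusted p = 0.0124), a fall that did not pass after median-ratio scaling (-0.10, adjusted p = 0.283). The part of shared reads was not tested.

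Qars, glutaminyl-tRNA synthetase, and Dars, aspartyl-tRNA synthetase, did not pass with TIC. Qars gave 36.9, 35.2 and 37.7 FPKM in the control libraries, 42.7, 40.99 and 43.2 with IFNγ and 32.3, 33.5 and 28.8 with IFNβ. With TIC, Qars read 37.5, 42.7 and 44.2 FPKM, with IFNγ plus TIC 35.00, 32.9 and 32.5, and with IFNβ plus TIC 26.1, 26.5 and 29.5. IFNγ libraries were above all controls, IFNβ, IFNγ plus TIC and IFNβ plus TIC libraries below all of them, and the lowest values came with IFNβ plus TIC. Against control the log2 change was -0.41 ± 0.076 (SE) with IFNβ plus TIC (limma adjusted p = 0.000187), and 0.20 ± 0.076 (SE) with IFNγ, 0.17 ± 0.076 (SE) with TIC and -0.13 ± 0.076 (SE) with IFNγ plus TIC, which did not pass (adjusted p = 0.0883, 0.0629 and 0.158). With IFNβ it was -0.21 ± 0.076 (SE) (adjusted p = 0.0381), a call lost without control replicate 1 or 3 or IFNβ replicate 1 or 3 (-0.23 to -0.15, adjusted p = 0.0505 to 0.177) and after median-ratio scaling. After that scaling Qars rose with TIC (0.23, adjusted p = 0.0103) and with IFNγ (0.24, adjusted p = 0.0302). Dars ranged from 83.6 to 116 FPKM over the 18 libraries and was called in none of the 11 comparisons.

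The 3 scaffold genes rose in each TIC group. Aimp1 measured 44.7, 44.9 and 47.2 FPKM in the control libraries, 54.1, 49.7 and 47.9 with IFNγ and 51.1, 44.6 and 45.5 with IFNβ. The Aimp1 values were 59.9, 61.99 and 65.04 FPKM with TIC, 60.9, 68.3 and 65.00 with IFNγ plus TIC, and 56.9, 55.2 and 55.2 with IFNβ plus TIC. In Aimp1 each TIC group was above every control. Aimp2 read 40.6, 39.1 and 44.2 FPKM in the control libraries, 42.5, 40.6 and 41.5 with IFNγ and 39.3, 36.6 and 39.8 with IFNβ. TIC gave 56.5, 58.4 and 59.6 FPKM of Aimp2, IFNγ plus TIC 51.6, 57.4 and 55.6, and IFNβ plus TIC 42.97, 51.2 and 53.98. Here IFNβ plus TIC overlapped the controls at its lowest library. Aimp2 overlaps Eif2ak1 in the annotation, with the same limit on reads as for Mars. Eef1e1 stood at 40.2, 52.8 and 46.4 FPKM in the control libraries, 40.9, 45.8 and 43.7 with IFNγ and 48.2, 51.6 and 47.4 with IFNβ. With TIC, Eef1e1 gave 65.6, 69.1 and 70.6 FPKM, with IFNγ plus TIC 56.4, 64.3 and 60.9, and with IFNβ plus TIC 65.8, 56.9 and 55.5. The Eef1e1 libraries of the 3 TIC groups were above all controls, and both interferons alone lay within the control range. The log2 changes with TIC were 0.44 ± 0.068 (SE), 0.49 ± 0.078 (SE) and 0.56 ± 0.091 (SE) for Aimp1, Aimp2 and Eef1e1 (limma adjusted p = 2.84e-05, 4.31e-05 and 5.27e-05). With IFNγ plus TIC they were 0.50, 0.40 and 0.38, and with IFNβ plus TIC 0.28, 0.25 and 0.35. The call of Aimp2 with IFNβ plus TIC was lost without replicate 3 of that group (0.18, adjusted p = 0.0645). Over the 11 complex genes, 9 rose with TIC and 0 fell, with a median of 0.44, and of the 13 cytosolic enzymes outside it 10 rose and 0 fell, with a median of 0.41, where 25.3% of all genes rose and 31.2% fell. After median-ratio scaling 10 of the 11 and 12 of the 13 rose (29.2% of all genes).

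Outside the complex, Vars, valyl-tRNA synthetase, had the next largest rise after Wars with IFNγ plus TIC. Vars had 40.1, 40.7 and 45.9 FPKM in the control libraries, 49.7, 50.7 and 49.2 with IFNγ and 42.2, 38.3 and 34.7 with IFNβ. The Vars values were 54.6, 62.8 and 59.9 FPKM with TIC, 88.6, 80.9 and 80.9 with IFNγ plus TIC, and 44.3, 51.4 and 52.00 with IFNβ plus TIC. IFNγ libraries were above all controls, and IFNγ plus TIC libraries above every other library. The log2 change was 0.97 ± 0.084 (SE) with IFNγ plus TIC and 0.48 ± 0.084 (SE) with TIC (limma adjusted p = 2.02e-08 and 0.00012), and 0.24 ± 0.084 (SE) with IFNγ, which did not pass (adjusted p = 0.0707) except after median-ratio scaling (0.28, adjusted p = 0.0261). With IFNβ plus TIC it was 0.22 ± 0.084 (SE) (adjusted p = 0.0341), a call lost without any of 4 libraries: control replicate 1 or 2, or IFNβ plus TIC replicate 2 or 3 (0.18 to 0.19, adjusted p = 0.0962 to 0.119).

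Nars, Aars, Cars and Gars, which charge asparagine, alanine, cysteine and glycine, rose with TIC and with IFNγ plus TIC. Nars gave 153, 168 and 195 FPKM in the control libraries, 138, 152 and 137 with IFNγ and 142, 152 and 125 with IFNβ. TIC gave 245, 252 and 252 FPKM of Nars, IFNγ plus TIC 283, 261 and 274, and IFNβ plus TIC 192, 186 and 198. Both interferons alone were below all controls, TIC and IFNγ plus TIC far above, and IFNβ plus TIC overlapped the controls. Aars measured 91.9, 93.7 and 108 FPKM in the control libraries, 89.3, 86.1 and 84.6 with IFNγ and 88.2, 86.9 and 85.9 with IFNβ. With TIC, Aars stood at 115, 127 and 135 FPKM, with IFNγ plus TIC 150.5, 147 and 151, and with IFNβ plus TIC 94.7, 112 and 101. Aars libraries with TIC and with IFNγ plus TIC were above all controls and did not overlap each other. Cars read 21.1, 20.7 and 28.8 FPKM in the control libraries, 18.8, 17.2 and 20.2 with IFNγ and 19.1, 18.3 and 16.7 with IFNβ. The Cars values were 31.2, 35.3 and 37.5 FPKM with TIC, 36.8, 38.4 and 35.8 with IFNγ plus TIC, and 20.00, 27.1 and 24.9 with IFNβ plus TIC. TIC and IFNγ plus TIC were above the controls here as well, while IFNβ plus TIC was not. Gars stood at 61.3, 72.7 and 73.7 FPKM in the control libraries, 62.2, 63.2 and 61.9 with IFNγ and 58.9, 55.5 and 58.98 with IFNβ. TIC gave 105, 106 and 105 FPKM of Gars, IFNγ plus TIC 108, 107 and 108, and IFNβ plus TIC 77.9, 82.2 and 71.8. The TIC and IFNγ plus TIC libraries were nearly level and above all others. With TIC the log2 changes were 0.54 ± 0.082 (SE) in Nars, 0.36 ± 0.075 (SE) in Aars, 0.55 ± 0.12 (SE) in Cars and 0.60 ± 0.068 (SE) in Gars, with limma adjusted p-values from 8.48e-07 to 0.000976. With IFNγ plus TIC they were 0.67, 0.61, 0.65 and 0.63, with adjusted p-values from 3.08e-07 to 0.000185. With IFNβ plus TIC none of them passed against control, but Gars rose after median-ratio scaling (0.39). The authors' deposited table calls Aars and Gars with IFNβ plus TIC (adjusted p = 0.000836 and 0.000267). It does not call Cars or Nars there (adjusted p = 0.181 and 0.349). Aars overlaps Ddx19b in the annotation, with the same limit on reads as for Mars.

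Farsb, Sars and Yars lay outside the complex as well. Farsb had 56.4, 57.6 and 57.7 FPKM in the control libraries, 48.7, 58.1 and 48.6 with IFNγ and 60.6, 68.5 and 65.1 with IFNβ. With TIC, Farsb measured 86.4, 79.97 and 80.7 FPKM, with IFNγ plus TIC 70.9, 76.7 and 70.3, and with IFNβ plus TIC 76.4, 70.1 and 65.8. In Farsb, the beta subunit of phenylalanyl-tRNA synthetase, TIC alone gave the highest libraries, and IFNβ alone was above all controls. Sars gave 83.3, 101 and 104 FPKM in the control libraries, 87.4, 76.4 and 74.3 with IFNγ and 97.9, 92.1 and 92.1 with IFNβ. The Sars values were 96.5, 112 and 111 FPKM with TIC, 127, 128 and 128 with IFNγ plus TIC, and 91.3, 97.5 and 93.5 with IFNβ plus TIC. In Sars, seryl-tRNA synthetase, only the IFNγ plus TIC libraries cleared the control range. Yars measured 49.3, 55.9 and 69.1 FPKM in the control libraries, 47.5, 49.8 and 44.5 with IFNγ and 48.9, 47.8 and 43.2 with IFNβ. TIC gave 69.2, 72.3 and 76.4 FPKM of Yars, IFNγ plus TIC 80.6, 77.1 and 80.97, and IFNβ plus TIC 49.7, 55.7 and 55.7. In Yars, tyrosyl-tRNA synthetase, TIC cleared the highest control by a narrow margin, IFNβ alone was below all controls, and IFNγ alone overlapped their lowest library. The log2 change in Farsb was 0.52 ± 0.077 (SE) with TIC (limma adjusted p = 1.94e-05) and in Sars 0.42 ± 0.083 (SE) with IFNγ plus TIC (adjusted p = 0.000317). Yars rose with TIC (0.33 ± 0.096 (SE), adjusted p = 0.00707), a call lost without control replicate 1 (0.22, adjusted p = 0.0524), and with IFNγ plus TIC (0.46 ± 0.096 (SE), adjusted p = 0.000439). Yars overlaps S100pbp in the annotation.

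Tarsl2, the cytosolic threonyl-tRNA synthetase paralogue, was low and was called lower with IFNβ and with both combined treatments. Tarsl2 read 5.26, 4.84 and 6.64 FPKM in the control libraries, 5.04, 6.07 and 4.66 with IFNγ and 3.93, 3.29 and 2.78 with IFNβ. With TIC, Tarsl2 had 4.22, 5.86 and 4.41 FPKM, with IFNγ plus TIC 3.58, 4.40 and 3.25, and with IFNβ plus TIC 3.66, 4.19 and 3.21. IFNβ and both interferon with TIC groups were below all controls, while IFNγ alone and TIC alone overlapped them. The log2 change was -0.60 ± 0.15 (SE) with IFNβ (limma adjusted p = 0.0044). With IFNγ plus TIC it was -0.47 ± 0.15 (SE) (adjusted p = 0.0109), lost without control replicate 3 (-0.36, adjusted p = 0.063) or IFNγ plus TIC replicate 3 (-0.40, adjusted p = 0.0521) and after median-ratio scaling (-0.32, adjusted p = 0.0668). The fall of Tarsl2 with IFNβ plus TIC did not pass after that scaling either. Tars, its paralogue, ranged from 49.0 to 90.8 FPKM, Hars from 56.5 to 79.9 FPKM and Farsa from 56.2 to 85.4 FPKM over the 18 libraries. Of these 3, Tars and Hars rose with TIC (0.41 and 0.33) and with IFNγ plus TIC (0.44 and 0.32), and Farsa was called in none of the 11 comparisons. After median-ratio scaling Farsa rose with TIC (0.28), IFNγ plus TIC (0.27) and IFNβ plus TIC (0.42), with adjusted p-values of 0.0121, 0.0121 and 0.000569. The authors' deposited table also calls Farsa in these 3 comparisons (adjusted p = 0.00202, 7.6e-05 and 0.000195). It calls Tarsl2 in none of the 5 comparisons with control (adjusted p = 0.0537 to 0.607).

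Among mitochondrial enzymes, Cars2, the cysteinyl-tRNA synthetase, fell most with IFNγ plus TIC. Cars2 stood at 20.7, 18.4 and 23.6 FPKM in the control libraries, 23.2, 17.3 and 21.96 with IFNγ and 15.00, 17.5 and 15.6 with IFNβ. The Cars2 values were 11.7, 12.1 and 13.3 FPKM with TIC, 9.87, 9.94 and 9.77 with IFNγ plus TIC, and 10.3, 11.1 and 11.3 with IFNβ plus TIC. Every library of the 3 TIC groups and of IFNβ was below every control. Log2 changes were -0.71 ± 0.11 (SE) with TIC, -1.004 ± 0.11 (SE) with IFNγ plus TIC and -0.88 ± 0.11 (SE) with IFNβ plus TIC (limma adjusted p = 2.14e-05, 2.59e-07 and 1.61e-06). The ratio of Cars to Cars2 went from 1.12 ± 0.1002 (SD, n = 3) in control to 2.81 ± 0.126 with TIC and 3.75 ± 0.104 with IFNγ plus TIC.

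Nars2 and Lars2, for asparagine and leucine, were lowest in the groups that combined an interferon with TIC. Nars2 had 17.2, 18.1 and 17.6 FPKM in the control libraries, 18.2, 14.1 and 15.05 with IFNγ and 14.05, 12.7 and 14.1 with IFNβ. TIC gave 12.9, 12.3 and 14.7 FPKM of Nars2, IFNγ plus TIC 11.9, 10.8 and 11.5, and IFNβ plus TIC 11.4, 10.2 and 12.5. IFNβ alone and the 3 TIC groups were below all Nars2 controls. Lars2 gave 10.97, 8.13 and 11.5 FPKM in the control libraries, 12.3, 10.8 and 10.3 with IFNγ and 10.1, 9.28 and 7.87 with IFNβ. With TIC, Lars2 read 6.49, 9.61 and 8.18 FPKM, with IFNγ plus TIC 7.10, 6.19 and 6.38, and with IFNβ plus TIC 6.24, 7.17 and 5.40. Only the combined treatments were below all Lars2 controls. With IFNγ plus TIC the log2 changes were -0.59 ± 0.099 (SE) in Nars2 and -0.55 ± 0.14 (SE) in Lars2 (limma adjusted p = 5.59e-05 and 0.00282). With IFNβ plus TIC they were -0.60 and -0.61 (adjusted p = 4.95e-05 and 0.00133).

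Aars2, Vars2 and Tars2, for alanine, valine and threonine, were also lower with either combined treatment. Aars2 measured 8.82, 7.03 and 8.94 FPKM in the control libraries, 7.51, 6.59 and 6.88 with IFNγ and 6.80, 5.37 and 4.39 with IFNβ. The Aars2 values were 6.01, 5.01 and 7.22 FPKM with TIC, 6.17, 5.46 and 5.28 with IFNγ plus TIC, and 3.79, 5.10 and 5.31 with IFNβ plus TIC. IFNβ and both combined treatments were below all Aars2 controls. Vars2 read 7.16, 6.29 and 6.93 FPKM in the control libraries, 6.24, 7.13 and 5.87 with IFNγ and 6.66, 5.61 and 5.55 with IFNβ. TIC gave 5.06, 6.04 and 4.88 FPKM of Vars2, IFNγ plus TIC 4.72, 4.10 and 4.36, and IFNβ plus TIC 3.92, 5.03 and 5.13. In Vars2 the 3 TIC groups were below the controls. Tars2 stood at 30.3, 28.7 and 27.8 FPKM in the control libraries, 35.7, 30.5 and 32.5 with IFNγ and 32.03, 29.6 and 27.5 with IFNβ. With TIC, Tars2 gave 27.8, 29.8 and 33.4 FPKM, with IFNγ plus TIC 24.3, 21.7 and 23.2, and with IFNβ plus TIC 21.00, 21.8 and 25.6. In Tars2 TIC alone overlapped the controls, IFNγ alone was above them and the combined treatments were below them. The log2 changes with IFNβ plus TIC were -0.70 ± 0.15 (SE), -0.46 ± 0.11 (SE) and -0.34 ± 0.091 (SE) (limma adjusted p = 0.000639, 0.00219 and 0.00418), of which those of Vars2 and Tars2 did not pass after median-ratio scaling (-0.26 and -0.12, adjusted p = 0.0527 and 0.264). With IFNγ plus TIC they were -0.48, -0.53 and -0.32, of which those of Aars2 and Tars2 did not pass after that scaling (-0.32 and -0.14, adjusted p = 0.0661 and 0.16). Aars2 also fell with IFNβ alone (-0.52 ± 0.15 (SE), adjusted p = 0.0119), a call lost without IFNβ replicate 3 (-0.39, adjusted p = 0.0709) and after scaling (-0.39, adjusted p = 0.0534). The falls of Aars2 and Vars2 with TIC alone were each lost without any of 4 single libraries (limma adjusted p = 0.0677 to 0.158).

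Rars2 and Yars2, for arginine and tyrosine, were the mitochondrial enzymes that rose. Rars2 ran from 8.31 to 10.1 FPKM in controls and from 11.7 to 14.7 FPKM with TIC (0.46 ± 0.13 (SE), limma adjusted p = 0.00468), and Yars2 from 8.66 to 11.7 FPKM in controls and from 12.7 to 16.0 FPKM with TIC (0.48 ± 0.13 (SE), adjusted p = 0.00499). The rise of Rars2 with IFNβ plus TIC was lost without any of 4 single libraries (0.24 to 0.34, limma adjusted p = 0.0552 to 0.149). Rars2 overlaps Orc3 and Slc35a1 in the annotation. Fars2 fell with IFNβ plus TIC (from 22.9 to 29.0 FPKM in controls to 18.4 to 20.1; -0.39 ± 0.095 (SE), adjusted p = 0.00182), a call that did not pass after median-ratio scaling (-0.17, adjusted p = 0.138). Ears2, Hars2, Pars2 and Sars2 were called in none of the 5 comparisons with control. After median-ratio scaling Sars2 rose with IFNβ (0.54, adjusted p = 0.0199). The authors' deposited table calls Sars2 with IFNβ (adjusted p = 0.00494) and Hars2 with IFNγ plus TIC (adjusted p = 0.0165). Their group means ran from 1.90 to 2.76 FPKM in Ears2, from 15.3 to 18.5 in Hars2, from 3.78 to 4.60 in Pars2 and from 6.51 to 9.22 in Sars2.

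Adding IFNγ to TIC raised a few cytosolic enzymes further. Against TIC alone, Wars rose by 0.83 ± 0.093 (SE), Kars by 0.77 ± 0.063 (SE) and Vars by 0.49 ± 0.084 (SE) on the log2 scale (limma adjusted p = 2.93e-06, 4.38e-08 and 0.000274), with no overlap between the 2 groups of libraries in any of them. Sars, Aars and Eprs rose by less (0.27, 0.25 and 0.21). Those 3 calls rested on single libraries: Eprs lost its call without IFNγ plus TIC replicate 3 (0.18, adjusted p = 0.0655), Aars without TIC replicate 1 or IFNγ plus TIC replicate 1 or 3 (0.18 to 0.24, adjusted p = 0.0546 to 0.0947), and Sars without TIC replicate 1 or any IFNγ plus TIC library (0.20 to 0.27, adjusted p = 0.0568 to 0.111). Qars, Tars2 and Cars2 fell (-0.30, -0.38 and -0.29), and the call of Cars2 was lost without any 1 of the 6 libraries (adjusted p = 0.0547 to 0.163). Neither Qars nor Cars2 passed after median-ratio scaling. These 6 higher and 3 lower members stand beside 29.2% of all genes called (7.42% higher, 21.8% lower), and after median-ratio scaling the counts were 10 and 1 (22.5% of genes called, 10.6% higher and 11.9% lower).

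Adding IFNβ to TIC lowered most cytosolic enzymes before median-ratio scaling, but 5 of 21 after it, when 2 rose. Only Kars rose (0.43 ± 0.063 (SE), limma adjusted p = 3.26e-05), while 13 cytosolic enzymes, Aimp2, Fars2 and Tars2 fell, which makes 1 higher and 16 lower where 41.4% of all genes were called (9.86% higher, 31.5% lower). The calls of Vars, Farsb, Aimp2 and Fars2 were each lost without any of 3 or 4 single libraries (adjusted p = 0.0502 to 0.135), among them TIC replicate 3 for Vars, Farsb and Aimp2 and TIC replicate 1 for Farsb and Fars2. The largest falls were in Qars (-0.58 ± 0.076 (SE), adjusted p = 1.22e-05), Cars (-0.52 ± 0.12 (SE), adjusted p = 0.0027) and Gars (-0.44 ± 0.068 (SE), adjusted p = 6.7e-05), each with no overlap of libraries. The cytosolic median was -0.31 beside -0.15 for all genes. After median-ratio scaling 3 members rose and 6 fell (32.2% of genes called, 15.7% higher and 16.5% lower), with a cytosolic median of -0.14. The falls, 6 of 39 members, were then near the share of all genes.

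**Figure D5:**
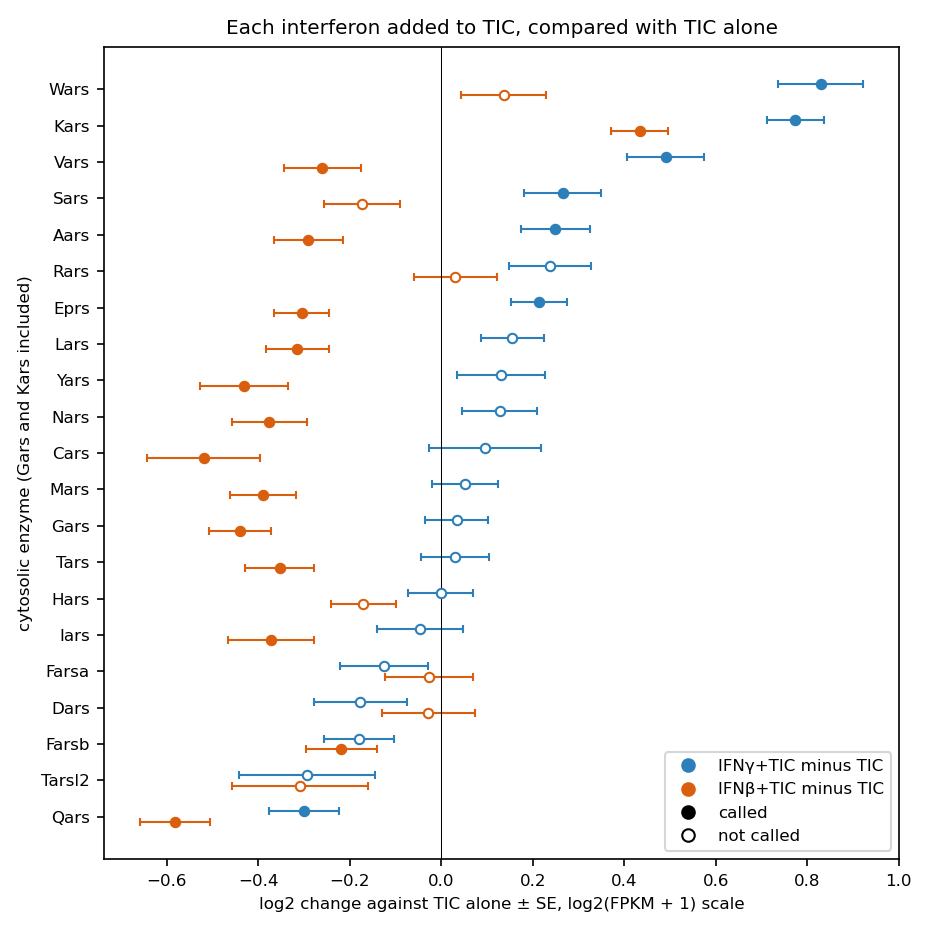
Log2 change against TIC alone (x axis, ± SE) of each of the 21 cytosolic enzymes when IFNγ (blue) or IFNβ (orange) was added to TIC; filled points are called at a limma adjusted p under 0.05. Wars, Kars and Vars lie between 0.49 and 0.83 with IFNγ, and with IFNβ only Kars is called to the right of 0.

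The interferons were compared directly on TIC. With IFNβ plus TIC, 15 of 21 cytosolic enzymes and Aimp1 were lower than with IFNγ plus TIC, and 0 members were higher (0 also at an unadjusted p under 0.05), where 22.4% of all genes were called (9.72% higher, 12.7% lower). The cytosolic median was -0.44 and the mitochondrial median -0.030, beside -0.031 for all genes, and 0 of 15 mitochondrial enzymes were called (1 lower at an unadjusted p under 0.05). The falls were -0.75 ± 0.084 (SE) in Vars, -0.69 ± 0.093 (SE) in Wars, -0.61 ± 0.12 (SE) in Cars, -0.56 ± 0.096 (SE) in Yars, -0.54 ± 0.075 (SE) in Aars, -0.52 ± 0.060 (SE) in Eprs and -0.50 ± 0.082 (SE) in Nars, with limma adjusted p-values from 3.84e-06 to 0.00134 and no overlap of libraries. After median-ratio scaling 15 of 21 cytosolic enzymes were lower (21.9% of genes called, 11.7% higher and 10.2% lower), with a median of -0.39. Calls of Iars, Qars and Aimp1 were lost without single libraries: Iars without IFNγ plus TIC replicate 3 or IFNβ plus TIC replicate 1, Qars without replicate 1 of either group, and Aimp1 without IFNγ plus TIC replicate 2 or 3 or any IFNβ plus TIC library (adjusted p = 0.0547 to 0.144 over the 3 genes). Of the other cytosolic enzymes Dars had 0.15 and Rars -0.21, neither of which passed.

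Without TIC the interferons differed less. With IFNβ 2 members, Farsb and Sars, were higher than with IFNγ and 7 were lower, Wars, Vars, Qars, Tarsl2, Wars2 and Cars2 among them, beside 25.1% of all genes called (5.77% higher, 19.3% lower). The differences were -0.47 ± 0.093 (SE) in Wars, -0.37 ± 0.084 (SE) in Vars, -0.41 ± 0.076 (SE) in Qars and 0.32 ± 0.077 (SE) in Farsb (limma adjusted p = 0.00151, 0.00383, 0.000781 and 0.00597). Tarsl2 (-0.53 ± 0.15 (SE), adjusted p = 0.0152) and Wars2 (-0.51 ± 0.14 (SE), adjusted p = 0.0119) were also lower with IFNβ, and without IFNβ replicate 3 they did not pass (-0.44 and -0.43, adjusted p = 0.0751 and 0.0611). Tarsl2 also lost its call without IFNγ replicate 2 (adjusted p = 0.0643), and the calls of Sars and Cars2 were each lost without any of 4 or 5 single libraries, IFNγ replicate 3 and IFNβ replicate 3 among them (adjusted p = 0.0705 to 0.143). After median-ratio scaling 3 members were higher and 5 lower (19.5% of genes called, 9.06% higher and 10.4% lower). Kars did not differ beyond the spread (0.0042 ± 0.063 (SE), adjusted p = 0.972).

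The interaction terms tested whether an interferon changed a gene by a different amount on TIC than alone. For IFNγ, Eprs, Sars, Aars, Nars, Mars and Lars had positive and Tars2 and Qars negative interactions, 6 and 2 members where 13.9% of all genes were called (3.64% higher, 10.2% lower). Those 6 cytosolic enzymes had log2 changes of -0.38 to -0.16 with IFNγ alone and of 0.051 to 0.27 when it was added to TIC. Eprs had the largest, 0.59 ± 0.086 (SE) (limma adjusted p = 0.000182). After median-ratio scaling 7 were positive and 2 negative (11.9% of genes called, 4.75% higher and 7.13% lower). For IFNβ, Kars, Farsb, Qars and Tars2 had negative interactions and 0 members positive ones (1 at an unadjusted p under 0.05), where 15.8% of all genes were called (7.16% higher, 8.66% lower). The same count, 0 and 4, held after median-ratio scaling (15.6%, 7.55% and 8.01%). Kars rose by 0.82 with IFNβ alone and by 0.43 when it was added to TIC, an interaction of -0.39 ± 0.088 (SE) (adjusted p = 0.00662).

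The 7 cytosolic enzymes whose promoters hold the C/EBP-ATF element letters were set beside the 11 others with a promoter. With TIC all 7 and 7 of the 11 rose (25.3% of all genes higher), and with IFNγ plus TIC all 7 and 8 of the 11 did (22.9%). When IFNβ was added to TIC all 7 fell, and 5 of the 11 others fell (31.5% of all genes lower). After median-ratio scaling the counts were 7 and 10 higher with TIC, 7 and 9 higher with IFNγ plus TIC, and 3 and 1 lower for IFNβ added to TIC (16.5% of all genes), where Aars, Iars, Nars and Tars did not pass (-0.21 to -0.12, adjusted p = 0.0528 to 0.197). With IFNβ plus TIC against control 0 of the 7 and 4 of the 11 rose (19.3% of all genes). After scaling 5 and 9 did (30.3%). IFNγ added to TIC raised 1 of the 7 and 5 of the 11 (7.42%). Between the combinations all 7 and 7 of the 11 were lower with IFNβ plus TIC (12.7%). These counts were made after the motif search and were not tested. The 7 include Aars, Cars, Iars, Mars and Yars, whose spans overlap other annotated genes.

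Known ATF4 targets and other genes of the integrated stress response were measured in 30 of 30 listed genes, none of them synthetases. With TIC 14 rose and 5 fell (25.3% and 31.2% of all genes), with IFNγ plus TIC 20 rose and 6 fell (22.9% and 40.4%), and with IFNβ plus TIC 7 rose and 8 fell (19.3% and 42.8%; 15 and 6 after median-ratio scaling, beside 30.3% and 29.3%). With IFNγ alone 11 fell and none rose (7.11% of all genes rose and 7.17% fell), and with IFNβ alone 3 rose and 17 fell (8.86% and 29.1%). IFNγ added to TIC raised 10 and lowered 2 (7.42% and 21.8%), IFNβ added to TIC raised 4 and lowered 15 (9.86% and 31.5%; 5 and 8 after scaling), and IFNβ plus TIC against IFNγ plus TIC gave 3 higher and 19 lower (9.72% and 12.7%). Median log2 changes were 0.28 with TIC, 0.59 with IFNγ plus TIC and 0.10 with IFNβ plus TIC. The largest changes with TIC were in Slc7a11, the cystine transporter (2.17 ± 0.20 (SE)), Gpt2 (-1.83 ± 0.10 (SE)), Ppp1r15a (1.35 ± 0.12 (SE)) and Slc7a5 (-1.25 ± 0.068 (SE)), so members of the list moved both ways. With IFNγ added to TIC, Ddit3 (1.66 ± 0.16 (SE)), Atf3 (1.61 ± 0.29 (SE)), Trib3 (0.78 ± 0.28 (SE)) and Chac1 (0.68 ± 0.18 (SE)) rose most.

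Atf4 itself and Asns, asparagine synthetase, were singled out after their values were seen. Atf4 was at 72.99, 93.9 and 114 FPKM in controls, 119, 135 and 154 with TIC, 162, 173 and 188 with IFNγ plus TIC and 101, 119 and 105 with IFNβ plus TIC. Asns was at 72.5, 98.7 and 94.9 FPKM in controls, 132, 131 and 124 with TIC, 169, 168 and 187 with IFNγ plus TIC and 86.4, 90.9 and 82.3 with IFNβ plus TIC. In both genes the IFNγ plus TIC libraries were highest, and those of IFNβ plus TIC overlapped the controls by FPKM. Median-ratio factors were 1.07 to 1.09 in controls and 0.911 to 0.927 with IFNβ plus TIC. Divided by these factors, the Atf4 libraries of IFNβ plus TIC no longer overlapped the controls, while those of Asns still did. Ddit3, of the same list, was instead highest with IFNβ plus TIC. Control replicate 1 was lowest for Atf4, and for 13 of 21 cytosolic synthetases, while control replicate 3 was highest for Atf4 and for 17 of 21; what this spread does to the synthetase results was not tested beyond leaving out libraries. The 4 eIF2 kinases, which start this response, were led by Eif2ak2, the interferon-induced kinase PKR. It rose by 0.69 ± 0.098 (SE) with IFNγ, 3.33 ± 0.098 (SE) with IFNβ, 0.40 ± 0.098 (SE) with TIC, 1.59 ± 0.098 (SE) with IFNγ plus TIC and 3.14 ± 0.098 (SE) with IFNβ plus TIC on the log2 scale. Eif2ak3, the kinase PERK of the endoplasmic reticulum, fell with IFNβ (-0.78), TIC (-0.39) and both combinations (-0.84 and -1.10).

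Genes that break down or take up tryptophan, the substrate of Wars, were measured for 6 of 14 listed. Kyat3, a kynurenine aminotransferase, rose with IFNγ (2.26 ± 0.094 (SE)), IFNβ (3.24 ± 0.094 (SE)), TIC (1.04 ± 0.094 (SE)), IFNγ plus TIC (2.20 ± 0.094 (SE)) and IFNβ plus TIC (2.72 ± 0.094 (SE)). It was the 1 of 6 that rose in each of these, while 3 fell with IFNγ, 4 with IFNβ, 3 with TIC and 4 with each combination. Afmid, kynurenine formamidase, was lower, with changes of -0.86, -0.90, -1.35, -1.78 and -1.75 in the same order on the log2 scale.

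The treatments were traced in 6 response genes: Irf1, Gbp2, Ifit3, Isg15, Cxcl10 and Lcn2. All 6 were higher with IFNγ and with each combination, 5 with IFNβ (Lcn2 did not pass) and 5 with TIC (Ifit3 did not pass). Among cell type markers, the summed FPKM of 8 astrocyte genes ran from 2326 to 2542 in controls, 1184 to 1219 with TIC, 755 to 779 with IFNγ plus TIC and 1104 to 1227 with IFNβ plus TIC. The largest part of that fall was in S100b, with means of 1351 FPKM in controls and 164 with IFNγ plus TIC, and Gfap, with 440.0 and 158.5. Gja1 had 422.9 and 263.6, and Slc1a3 11 and 6.77. Aldh1l1 was higher, at 52.8 and 67.5, while Slc1a2 had 26.9 and 24.02, Aqp4 34.4 and 28.1, and Sox9 79.8 and 55.6. The sum of 4 oligodendrocyte precursor genes ran from 875 to 1116 in controls and from 128 to 136 with IFNγ plus TIC, and that of 4 microglial genes from 31.5 to 55.1 in controls and from 165 to 170 with IFNγ plus TIC, where Cd68 alone gave 163 to 168. Sums of 4 oligodendrocyte genes ran from 137 to 173 in controls and 330 to 391 with IFNβ, of 3 neuronal genes from 30.4 to 41.2 and 14.2 to 18.3, and of 4 pericyte and fibroblast genes from 32.2 to 47.8 and 70.0 to 96.2. The 1 endothelial marker measured, Flt1, ran from 0.111 to 0.163 FPKM in controls, 6.96 to 8.17 with TIC, 4.28 to 4.46 with IFNγ plus TIC and 1.55 to 2.34 with IFNβ plus TIC. Dcn, a fibroblast marker, was listed at 0 in every control and every IFNβ library. The part of these shifts in the synthetase results was not tested, and in bulk RNA fewer cells of a type cannot be told apart from less RNA per cell.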

How the data were processed

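Per the labels' protocols, cDNA came from the SMART-seq HT kit and libraries from Nextera XT, read on a NovaSeq6000. The submitters' processing notes name HISAT2, StringTie, DESeq2 and the mouse build mm10, whereas the identifiers in the table are rat Ensembl genes; for versions and strand handling, nothing is given in the sources used here. The authors' deposited table holds FPKM per library, per the file headers, with the authors' log2 fold changes and adjusted p-values; the log2 changes of IFNγ and IFNβ against control hold spreadsheet errors and were not used. Of its 10434 rows, 3 with an empty name, which hold up to 0.012% of the FPKM in any library, were left out, and 15 of 17 symbols that a spreadsheet had turned into numbers were kept by identifier.

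Genes that reached 1 FPKM in 3 libraries were fitted with limma 3.58.1 (R 4.3.3) on log2(FPKM + 1), 1 mean per group over 18 libraries, with a trend in the prior variance, and 11 contrasts. Fold changes on this scale understate those of low genes. P-values (two-sided) carry a Benjamini-Hochberg adjustment over the 10296 genes, with calls at under 0.05. The fit was tested on simulated data. An interaction is the log2 change by an interferon on TIC minus that by the interferon alone. Given library by library are Wars, Wars2, Eprs, the scaffold genes and members that were called with a log2 change of 0.5 or more and no overlap of libraries, or had a called interaction, in any contrast (28 members, of which 1 is not reported here by name, nor is 1 response gene). Up to 4 called genes with the largest change are named from each companion list. Members, lists and tests were chosen with earlier results of these data known. Alternatives were a pseudocount of 0.1, no filter, median-ratio scaling, only the groups compared, a replicate block, each library left out and the authors' adjusted p-values. Replicate numbers are not stated to pair samples. Promoters are from RefSeq (GRCr8), where the spans of 14 of the 38 members looked up overlap another gene. Figures were drawn with matplotlib 3.10.9.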

Additional observations from a re-analysis of the deposited data

Results flagged for a closer look

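These differences between an interferon's effect on TIC and its effect alone passed limma's interaction test over all genes. For IFNγ the positive ones were Eprs at 0.59 ± 0.086 (SE, adjusted p = 0.000182), Sars at 0.53 ± 0.12 (SE, adjusted p = 0.0055), Aars at 0.42 ± 0.11 (SE, adjusted p = 0.0135), Nars at 0.40 ± 0.12 (SE, adjusted p = 0.0297), Mars at 0.36 ± 0.10 (SE, adjusted p = 0.0264) and Lars at 0.32 ± 0.097 (SE, adjusted p = 0.0368). The negative ones were Tars2 at -0.55 ± 0.13 (SE, adjusted p = 0.00819) and Qars at -0.50 ± 0.11 (SE, adjusted p = 0.0047).

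For IFNβ they were Tars2 at -0.43 ± 0.13 (SE, adjusted p = 0.0319), Farsb at -0.39 ± 0.11 (SE, adjusted p = 0.0215), Kars at -0.39 ± 0.088 (SE, adjusted p = 0.00662) and Qars at -0.37 ± 0.11 (SE, adjusted p = 0.0281). For Qars the IFNγ means were 42.3 ± 1.16 FPKM (SD, n = 3) against 36.6 ± 1.28 FPKM (SD, n = 3) in control and 33.4 ± 1.37 FPKM (SD, n = 3) with TIC against 41.5 ± 3.50 FPKM (SD, n = 3) with TIC alone.

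Several of these calls did not survive the loss of 1 library. For IFNγ, Lars was lost without any of 8 libraries (0.27 to 0.33, adjusted p = 0.0578 to 0.106): control replicates 1, 2 and 3, IFNγ replicates 1 and 3, TIC replicates 1 and 3, and IFNγ plus TIC replicate 3. Mars was lost without any of 5 (0.31 to 0.36, adjusted p = 0.0545 to 0.0734): control replicate 2, IFNγ replicate 3, TIC replicate 1, and IFNγ plus TIC replicates 1 and 3. Nars was lost without any of 8 (0.30 to 0.40, adjusted p = 0.0525 to 0.0709): control replicate 3, IFNγ replicates 1 and 3, TIC replicates 1, 2 and 3, and IFNγ plus TIC replicates 1 and 3. For IFNβ, Farsb was lost without IFNβ replicate 2 or IFNβ plus TIC replicate 3 (-0.35 and -0.34, adjusted p = 0.0512 and 0.0543). Qars was lost without any of 7 (-0.35 to -0.32, adjusted p = 0.0596 to 0.0779): control replicate 2, IFNβ replicates 1 and 2, TIC replicates 2 and 3, and IFNβ plus TIC replicates 1 and 2. Tars2 was lost without any of 8 (-0.44 to -0.36, adjusted p = 0.0515 to 0.0896): control replicates 2 and 3, IFNβ replicates 1 and 2, TIC replicates 2 and 3, and IFNβ plus TIC replicates 1 and 2. Eprs, Sars, Aars, Tars2 and Qars for IFNγ, and Kars for IFNβ, passed in every fit with 1 library left out.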

How the results depend on the processing

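The counts of members called kept within 1.5 times of those reported for a pseudocount of 0.1, no filter and the replicate block in all 11 comparisons. Median-ratio scaling moved the count with IFNβ from 16 to 9 and with IFNβ added to TIC from 17 to 9. A fit of only the groups compared gave 4 with IFNγ, 6 with IFNβ and 2 for the IFNβ interaction. The authors' deposited table calls 6, 8, 28, 31 and 26 of the 39 members with IFNγ, IFNβ, TIC, IFNγ plus TIC, and IFNβ plus TIC, beside 13.5%, 27.9%, 55.0%, 63.8% and 56.8% of all genes with such a value. The cause of these shifts was not tested, except that a fit of fewer groups has fewer libraries for its spread.

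With each library left out in turn the counts ran from 4 to 10 with IFNγ, 8 to 14 with IFNβ, 24 to 28 with TIC, 29 to 31 with IFNγ plus TIC, 19 to 23 with IFNβ plus TIC, 5 to 9 for IFNγ added to TIC, 14 to 18 for IFNβ added to TIC, 4 to 8 for IFNβ against IFNγ, 13 to 15 for the same on TIC, 5 to 10 for the IFNγ interaction and 1 to 4 for the IFNβ interaction. Shifts over 1.5 times came without control replicate 2 (4) or IFNγ replicate 3 (4) for IFNγ, and without IFNβ replicate 3 for IFNβ (8) and for IFNβ against IFNγ (4). They also came without IFNγ plus TIC replicate 3 for IFNγ added to TIC (5), and without IFNγ replicate 3, TIC replicate 1 or IFNγ plus TIC replicate 3 for its interaction (5 each). The IFNβ interaction had 2 without IFNβ replicate 1, TIC replicate 2, or IFNβ plus TIC replicate 1 or 2, and 1 without IFNβ replicate 2.

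Of the 164 calls of single members, 37 were lost after median-ratio scaling (which added 29 others, 11 of them with IFNβ plus TIC), 25 when only the groups compared were fitted and 0 with the pseudocount of 0.1 or no filter; none changed direction. No pairing by replicate number was seen in the values. Same-numbered libraries of different groups had correlations of their deviations from -0.173 to 0.155 (median 0.000478, 6 of 45 over 0.1). Of 18 libraries, 5 correlated best with their own number. These correlations cannot show that no animals or cultures were shared between groups. With the replicate block 2 of the 164 calls were lost, Lars in the IFNγ interaction and Sars between the interferons, and the counts became 22 with IFNβ plus TIC, 10 and 18 for IFNγ and IFNβ added to TIC, 8 for IFNβ against IFNγ, 17 for the same on TIC and 7 for the IFNγ interaction. The number of reads per gene is unknown, so precision at low FPKM, as in Ears2, Pars2 and Tarsl2, cannot be stated beyond the spread of 3 libraries.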

Other observations

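Other genes of translation were counted beside the synthetases; of all genes 25.3% rose and 31.2% fell with TIC, 22.9% and 40.4% with IFNγ plus TIC, and 19.3% and 42.8% with IFNβ plus TIC. Of 8 cytosolic elongation factor genes, 4 rose and 1 fell with TIC, 1 rose and 4 fell with IFNγ plus TIC, and 1 rose and 6 fell with IFNβ plus TIC; after median-ratio scaling the last 2 counts were 3 and 3, and 2 and 4. Eif5a, the hypusinated elongation factor, rose with TIC (0.58 ± 0.060 (SE), limma), while Eef2, the translocase, fell with IFNβ plus TIC (-0.72 ± 0.078 (SE)) and Eef1a1, the carrier of aminoacyl-tRNA, did too (-0.53 ± 0.071 (SE)). Eef1g and Eef1b2, of the exchange factor for Eef1a1, had negative interactions with both interferons (-0.45 ± 0.10 (SE) and -0.48 ± 0.14 (SE) for IFNγ, -0.61 ± 0.10 (SE) and -0.49 ± 0.14 (SE) for IFNβ).

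Of 15 mitochondrial translation factors measured, 1 rose and 3 fell with TIC, 9 fell and none rose with IFNγ plus TIC, and 8 fell and none rose with IFNβ plus TIC (after median-ratio scaling 1 rose and 4 fell, and 3 rose and 5 fell, in the combinations), with medians of -0.16, -0.24 and -0.26. Gfm2, a ribosome recycling GTPase, fell with IFNγ plus TIC (-0.69 ± 0.077 (SE)) and with IFNβ plus TIC (-0.71 ± 0.077 (SE)), and Gatc, a subunit of the glutaminyl-tRNA amidotransferase, fell as well (-0.53 and -0.59). Of 25 genes of tRNA maturation, export and editing measured, 7 rose and 6 fell with TIC, 5 rose and 8 fell with IFNγ plus TIC, and 2 rose and 10 fell with IFNβ plus TIC (after scaling 9 rose and 4 fell, and 8 rose and 5 fell, in the combinations). Tsen54, a tRNA splicing endonuclease subunit, rose with TIC (0.89 ± 0.16 (SE)), and Pstk, the kinase that prepares selenocysteine tRNA, fell with TIC (-0.95 ± 0.13 (SE)) and with IFNγ plus TIC (-1.03 ± 0.13 (SE)).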
